A study of Mus musculus with 84 samples.

Results

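The 10 genes described here carry the glucagon signal from the cell surface to the nucleus and switch it off again. They are the glucagon receptor gene Gcgr, the G protein gene Gnas, the protein kinase A (PKA) genes Prkaca and Prkar1a, the transcription factor and coactivator genes Creb1, Crtc2 and Crem, and the phosphodiesterase genes Pde3b, Pde4b and Pde4d. They were chosen by symbol, through the Ensembl identifiers of GENCODE M21, and are 10 of the 48794 genes listed in each table. Liver and epididymal white adipose tissue (eWAT) were sequenced as bulk RNA from male C57BL/6J mice that were diet-induced obese on a high-fat diet and 22 weeks old at the start. All groups were dosed under the skin each day for 30 days. They received vehicle, BI 456906, a dual agonist of the glucagon-like peptide-1 (GLP-1) receptor and the glucagon receptor, at 1 of 4 doses (3, 10, 20 and 30 nmol/kg), or an agonist of the GLP-1 receptor alone, semaglutide, at a lower (20 nmol/kg) or higher dose (100 nmol/kg). Each of the 7 groups held 6 libraries in each tissue, 84 libraries in all. The labels do not say which liver and eWAT library came from the same mouse.

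Glucagon binds a receptor on hepatocytes that couples through Gs to adenylyl cyclase. The cyclic AMP formed releases the catalytic subunit of PKA from its regulatory subunit. PKA phosphorylates CREB and leads to the entry of the coactivator CRTC2 into the nucleus, where both act on genes of gluconeogenesis. Phosphodiesterases break cyclic AMP down, and the Crem gene also encodes ICER, a short repressor that cyclic AMP induces. Receptor kinases and arrestins desensitise receptors of this kind by acting on the protein, which RNA levels do not show.

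Depth, as reads recovered from the deposited values, was 21676902 to 53869104 per liver library and 37573004 to 53996914 per eWAT library. The tissue labels held in the marker genes: 8 hepatocyte markers summed to 96373 to 136597 TPM, length-normalised transcript units scaled to the same sum in each library, in liver, and 7 adipocyte markers to 10962 to 34902 TPM in eWAT. The eWAT libraries also held hepatocyte transcripts, from 18.7 to 8034 TPM over the same 8 markers, with the highest level in a vehicle library. One eWAT library of semaglutide 100 nmol/kg, replicate 40, stood apart with 63.9 TPM of Crem and 24 TPM of Pde4b, and eWAT results are given without it where that matters. In bulk tissue, fewer cells of a type and less RNA per cell cannot be told apart. The labels give the 6 libraries of a group as separate samples and name no animals, so p-values measure the spread between these samples.

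Levels are TPM as deposited, which are corrected for transcript length. Changes are log2 fold changes with their standard error (SE) from limma/voom on the deposited gene values, in one fit per tissue. A gene passed where the Benjamini-Hochberg adjusted p over all genes tested, the false discovery rate (FDR), did not exceed 0.05. The fits held 15964 genes in liver and 18536 in eWAT, and all 10 members were tested in both.

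In liver of vehicle mice Gnas was the most abundant member, with 359 ± 27.1 TPM (SD, n = 6). Gcgr followed with 225 ± 5.48 TPM, Prkar1a with 59.6 ± 4.78, Prkaca with 35.4 ± 2.23, Crem with 22.9 ± 1.70, Crtc2 with 20.9 ± 1.46 and Pde3b with 14.2 ± 2.91 TPM. Pde4b stood at 4.14 ± 0.702, Creb1 at 2.20 ± 0.361 and Pde4d at 1.67 ± 0.383 TPM. The ranges of Crem and Crtc2 overlapped, as did those of Creb1 and Pde4d, and the other neighbours in this order did not overlap. In eWAT the order was Gnas with 824 ± 66.7, Prkar1a with 170.5 ± 10.0, Prkaca with 81.3 ± 11.6 and Pde3b with 61.9 ± 16.98 TPM. Below them were Crtc2 with 40.7 ± 2.35, Crem with 22.4 ± 2.31, Creb1 with 20.4 ± 3.45, Pde4b with 11.8 ± 2.64, Gcgr with 8.62 ± 5.65 and Pde4d with 5.48 ± 0.996 TPM. In eWAT the ranges of Prkaca and Pde3b overlapped, as did those of each neighbouring pair from Crem down to Pde4d. The 2 tables were scaled separately, so levels between tissues are set side by side and not tested.

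The first question was how dosing changed these genes in liver. At BI 456906 30 nmol/kg 9 of the 10 members passed. The receptor, the Gs subunit and the PKA catalytic subunit fell, while the PKA regulatory subunit, Creb1, Crtc2, Crem, Pde3b and Pde4d rose. The falls and rises were moderate, between 0.71-fold for Gcgr and Prkaca and 1.77-fold for Creb1, and in limma/voom no member reached a log2 change of 1 in size, which 12.9% of the genes tested did together with the FDR. Of all genes tested, 28.9% passed with a rise and 29.9% with a fall, against 6 and 3 of the 10 members. In 8 members the 6 TPM values lay apart from the 6 of vehicle, as they did in 29.4% of the genes tested. At 10 and 20 nmol/kg 3 and 6 members lay apart, as did 2181 and 3078 of the 15964 genes. With semaglutide at 20 and 100 nmol/kg 4 and 3 members did, as did 3064 and 2786 genes. At the lower doses 3, 6 and 9 members passed at 3, 10 and 20 nmol/kg, where 13.4%, 37.5% and 45.9% of all genes did.

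**Figure D1:**
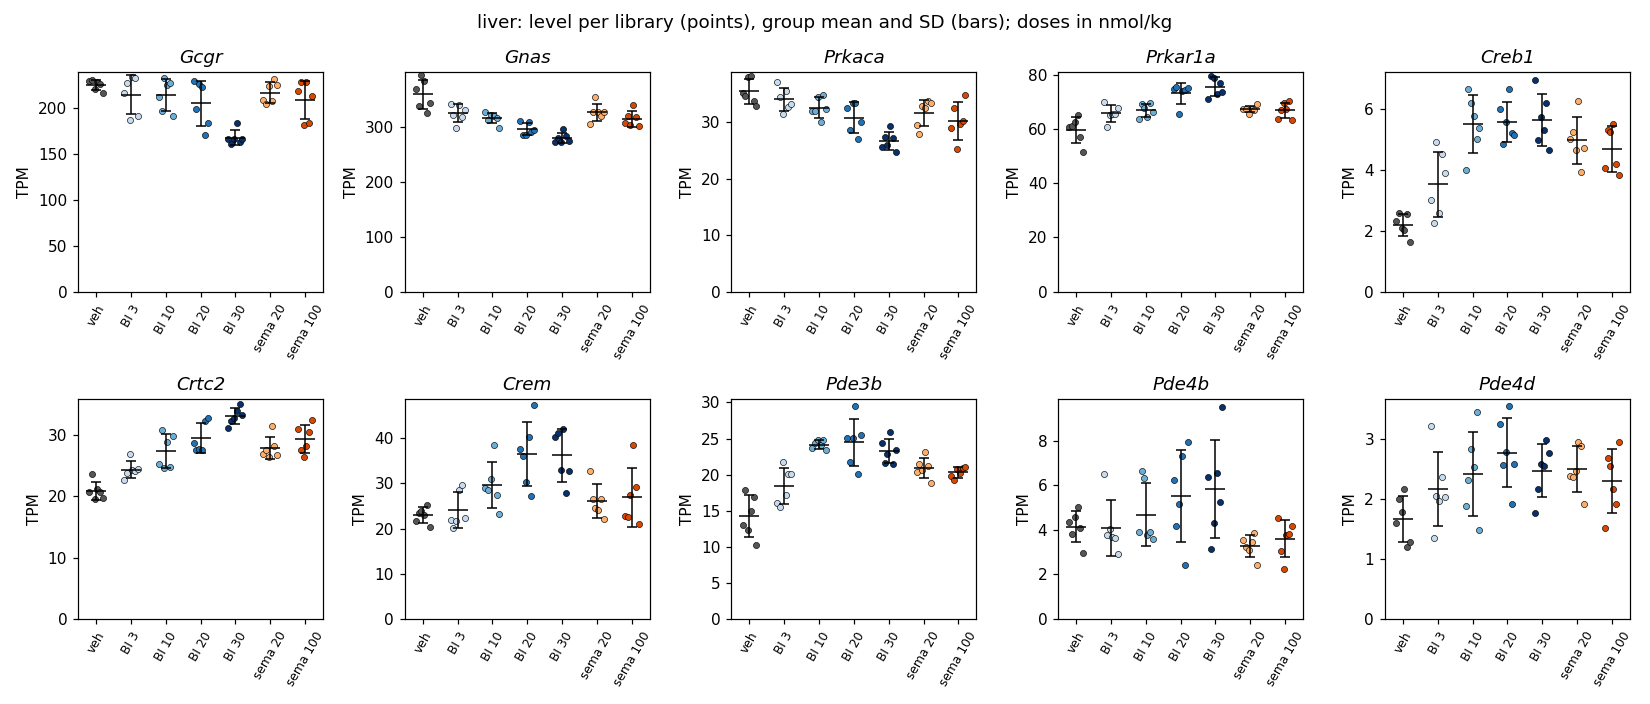
Levels of the 10 genes in liver, 1 panel per gene, in TPM from 0. Points are the 6 libraries of each group, and the black marks are the group mean and SD. Gcgr stays above 160 TPM in all groups and is lowest at BI 456906 30 nmol/kg, while Creb1, Crtc2 and Pde3b stand above vehicle from 10 nmol/kg.

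Gcgr lies on chromosome 11 from 120530699 to 120538986 (GRCm38, plus strand). Its level in vehicle was 216 TPM at the lowest, 227 at the median and 230 at the highest. At BI 456906 30 nmol/kg it was 160 TPM at the lowest, 166 at the median and 184 at the highest, so that all 6 libraries were below all 6 of vehicle. At 3, 10 and 20 nmol/kg the ranges were 187 to 234, 191 to 233 and 170 to 229 TPM and overlapped that of vehicle. The log2 fold change was -0.11 ± 0.07 at 3 nmol/kg (FDR 0.30), -0.17 ± 0.07 at 10 (FDR 0.046), -0.23 ± 0.07 at 20 (FDR 0.0068) and -0.48 ± 0.07 at 30 nmol/kg (FDR 1.7e-07). Semaglutide gave -0.14 ± 0.07 at 20 nmol/kg (FDR 0.098) and -0.18 ± 0.07 at 100 nmol/kg (FDR 0.033). The calls at BI 456906 10 nmol/kg and at semaglutide 100 nmol/kg passed under only 1 and 7 of 13 other settings, and the call at 30 nmol/kg under all 13. Receptor RNA was thus lower at the highest dose but not lost, with at least 7452 reads in every liver library.

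The start of Gcgr overlaps Gm11789, an antisense gene on the opposite strand from 120526855 to 120531784. Gm11789 was 77.3 ± 4.28 TPM in vehicle and 42.5 ± 3.36 TPM at 30 nmol/kg. The labels and the study describe different library kits, of which only one is stated to keep the strand, so reads where the 2 genes overlap may be shared. RefSeq (GRCm38.p6) gives a promoter window of 300 bases for 7 of the 10 members, and Crtc2, Crem and Pde3b have none in that table. The cyclic AMP response element TGACGTCA, read on both strands, occurs in 1.79% of the 32851 windows of the table, and its shorter form TGACG, which the full element contains, in 20.8%. The Gcgr window held neither, and the 200 bases at chr11:120530477-120530676 are shown because they lie before the start of the receptor gene.

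Gcgr: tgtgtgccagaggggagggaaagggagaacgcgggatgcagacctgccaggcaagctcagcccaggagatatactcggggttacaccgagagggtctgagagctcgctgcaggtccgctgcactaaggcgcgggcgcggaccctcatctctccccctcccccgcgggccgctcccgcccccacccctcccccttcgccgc

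Gnas, which encodes the stimulatory G protein subunit that couples the receptor to adenylyl cyclase, lies on chromosome 2 from 174284320 to 174346744 (plus strand). It was 325 TPM at the lowest, 355 at the median and 394 at the highest in vehicle, and 273, 277 and 295 TPM at BI 456906 30 nmol/kg. All 6 values at 30 nmol/kg, and all 6 at 20 nmol/kg, lay below vehicle. Its log2 fold change went from -0.19 ± 0.04 at 3 nmol/kg (FDR 0.0039) to -0.43 ± 0.04 at 30 nmol/kg (FDR 8.6e-11), and it passed at every dose of both compounds. Gnas is an imprinted gene with several transcripts from 1 locus, and values per gene do not separate them. The antisense gene Nespas had at most 4 reads in a liver library.

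Prkaca encodes a catalytic subunit of PKA and lies on chromosome 8 from 83972993 to 83996443 (plus strand). Its level was 32.8, 34.9 and 38.2 TPM at the lowest, median and highest vehicle library, and 24.6, 26.6 and 29.2 TPM at 30 nmol/kg, with no overlap. The log2 fold change was -0.49 ± 0.06 at BI 456906 30 nmol/kg (FDR 4.3e-09) and -0.31 ± 0.06 at semaglutide 100 nmol/kg (FDR 3.4e-05). Prkar1a encodes a regulatory subunit that holds the catalytic subunit inactive, and lies on chromosome 11 from 109649405 to 109669656 (plus strand). It moved the other way, from 51.4, 60.8 and 64.98 TPM in vehicle to 71.1, 75.3 and 79.6 TPM at 30 nmol/kg. Its log2 fold change was 0.17 ± 0.04 at 20 nmol/kg (FDR 0.0011) and 0.24 ± 0.04 at 30 nmol/kg (FDR 4.4e-06). Neither semaglutide dose passed in limma/voom, with 0.05 at 20 nmol/kg (FDR 0.37) and 0.07 at 100 nmol/kg (FDR 0.16). Each passed under 2 of 13 other settings, and at semaglutide 20 nmol/kg all TPM values lay above those of vehicle.

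Of the promoter windows of Prkar1a 2 held the full element, which is the same copy in both. It lies 49 bases before the transcript start at 109650949 and after the other start, at 109650862. The 30 bases at chr11:109650889-109650918 around it are shown first, and below them stretches with the shorter form from Prkaca at chr8:83972847-83972876, Gnas at chr2:174327700-174327729 and Pde4b at chr4:102421510-102421539, so that windows of genes that rose, fell and did neither stand together. Capitals mark the element or its shorter form, which reads CGTCA on the strand shown. The windows of Creb1 and Pde4d, which also rose, held neither the element nor its shorter form and are not shown. A match in letters is not a site that was measured.

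Prkar1a: gcgaggcgcatTGACGTCAgcagccgaacg
Prkaca: tctgcaactcgCGTCActcatccaggagcc
Gnas: agaggttggggCGTCAtcaggctggttaga
Pde4b: atttggctgcaCGTCAattttctcatctga

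Creb1, the transcription factor that PKA phosphorylates, lies on chromosome 1 from 64532645 to 64604548 (plus strand) and showed the largest rise of the 10. Vehicle libraries held 1.63 TPM at the lowest, 2.21 at the median and 2.58 at the highest. Libraries at BI 456906 30 nmol/kg held 4.63, 5.51 and 6.94 TPM, and those at semaglutide 100 nmol/kg 3.81, 4.71 and 5.51 TPM, both above all vehicle libraries. The log2 fold change was 0.40 ± 0.09 at 3 nmol/kg (FDR 0.0046), 0.73 ± 0.09 at 10, 0.76 ± 0.09 at 20 and 0.82 ± 0.09 at 30 nmol/kg (FDR 6.4e-10), so that most of the rise was present at 10 nmol/kg. Semaglutide gave 0.63 ± 0.09 at 20 nmol/kg and 0.57 ± 0.09 at 100 nmol/kg (FDR 2.7e-06). On the TPM scale the change at 30 nmol/kg was larger, 1.05 with a pseudocount of 1 and 1.32 with a pseudocount of 0.1. With the latter it was 1.28 at 10 and 1.31 at 20 nmol/kg.

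Crtc2, the CREB coactivator of the liver, lies on chromosome 3 from 90254163 to 90264125 (plus strand). It rose from 19.6, 20.7 and 23.6 TPM in vehicle to 31.04, 33.01 and 35.02 TPM at BI 456906 30 nmol/kg, with no overlap. Its log2 fold change of 0.23 ± 0.06 at 10 nmol/kg (FDR 0.0016) went to 0.52 ± 0.06 at 30 nmol/kg (FDR 6.7e-10), and semaglutide 100 nmol/kg gave 0.33 ± 0.06 (FDR 8.9e-06). Crem lies on chromosome 18 from 3266048 to 3337748 (minus strand), and the values per gene do not separate ICER from its longer transcripts. It was 20.4, 23.3 and 25.2 TPM in vehicle and 27.9, 36.7 and 42.03 TPM at 30 nmol/kg. Crem passed at 20 nmol/kg (0.48 ± 0.11, FDR 4.0e-04) and at 30 nmol/kg (0.49 ± 0.11, FDR 1.8e-04). With semaglutide its values were 0.08 ± 0.11 (FDR 0.59) and 0.10 ± 0.11 (FDR 0.46), and the ranges overlapped that of vehicle.

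Among the phosphodiesterases, Pde3b passed at every dose of both compounds in liver. This enzyme lowers cyclic AMP downstream of insulin, and its gene lies on chromosome 7 from 114415281 to 114539251 (plus strand). It was 10.2, 13.9 and 17.9 TPM in vehicle, 23.4, 24.2 and 24.9 TPM at 10 nmol/kg and 21.5, 23.2 and 25.9 TPM at 30 nmol/kg, so that its level at 10 nmol/kg was already that of the highest dose. The log2 fold change was 0.67 ± 0.09 at 10 nmol/kg (FDR 2.1e-07) and 0.65 ± 0.09 at 30 nmol/kg (FDR 3.8e-08).

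Pde4d and Pde4b encode cyclic AMP phosphodiesterases of the PDE4 family, on chromosome 13 from 108449948 to 109953461 and on chromosome 4 from 102087543 to 102607259 (both plus strand). Pde4d was low, with 1.20, 1.70 and 2.16 TPM in vehicle and 1.77, 2.57 and 2.99 TPM at 30 nmol/kg, and the ranges overlapped. It passed at 20 nmol/kg (0.54 ± 0.16, FDR 0.0049) and at 30 nmol/kg (0.40 ± 0.16, FDR 0.031). Pde4b was the one member that passed at no dose in liver. It was 2.98, 4.22 and 5.02 TPM in vehicle, 3.16, 5.81 and 9.51 TPM at BI 456906 30 nmol/kg and 2.24, 3.79 and 4.52 TPM at semaglutide 100 nmol/kg. The spread over the 6 libraries was widest at 20 and 30 nmol/kg (SD 2.06 and 2.20 TPM against 0.702 in vehicle), and the log2 fold change at 30 nmol/kg was 0.32 ± 0.22 (FDR 0.22).

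A linear slope over vehicle and the 4 doses of BI 456906 passed in liver for the same 9 members, 6 up and 3 down, where 29.3% of all genes had a rising and 29.6% a falling slope. Per 10 nmol/kg the log2 level of Creb1 rose by 0.23 ± 0.02, that of Pde3b by 0.18 ± 0.02 and that of Crem by 0.18 ± 0.03. Gcgr fell by 0.14 ± 0.02, Prkaca by 0.15 ± 0.02 and Gnas by 0.13 ± 0.01. The slope of Pde4b was 0.13 ± 0.06 (FDR 0.067).

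Base composition moved with dosing in liver, under both compounds, and is given beside these results. Gcgr, Gnas and Prkaca, the 3 that fell, have transcripts of 58.1, 56.6 and 53.6% GC. Among those that rose, Pde3b has 38.7%, which is above only 1.94% of the genes tested. Crem, Creb1, Prkar1a and Pde4d, which also rose, have 44.35, 45.2, 47.7 and 49.9%. Crtc2 went the other way, as it rose with 54.8% GC, more than Prkaca has. For each library, log2 levels were taken relative to each gene's own mean over all liver libraries. The median of these values in GC-rich genes minus that in GC-poor genes was 0.093 to 0.35 in vehicle libraries and -0.22 to -0.061 at 30 nmol/kg. With semaglutide it was also below vehicle, at -0.14 to 0.024 for 20 nmol/kg and -0.16 to -0.059 for 100 nmol/kg. In a fit of values corrected for GC and length, an alternative chosen after the data were seen, Gcgr was at -0.40, Gnas at -0.37, Prkaca at -0.48 and Pde3b at 0.41 at 30 nmol/kg, and all 4 passed. For Gcgr at semaglutide 100 nmol/kg the corrected value was -0.10 (FDR 0.31). Hepatocyte markers in liver, 1 of which is the cyclic AMP target Tat, summed to 96373 to 111078 TPM in vehicle and 114239 to 127137 TPM at 30 nmol/kg, and their part in the results was not tested.

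**Figure D2:**
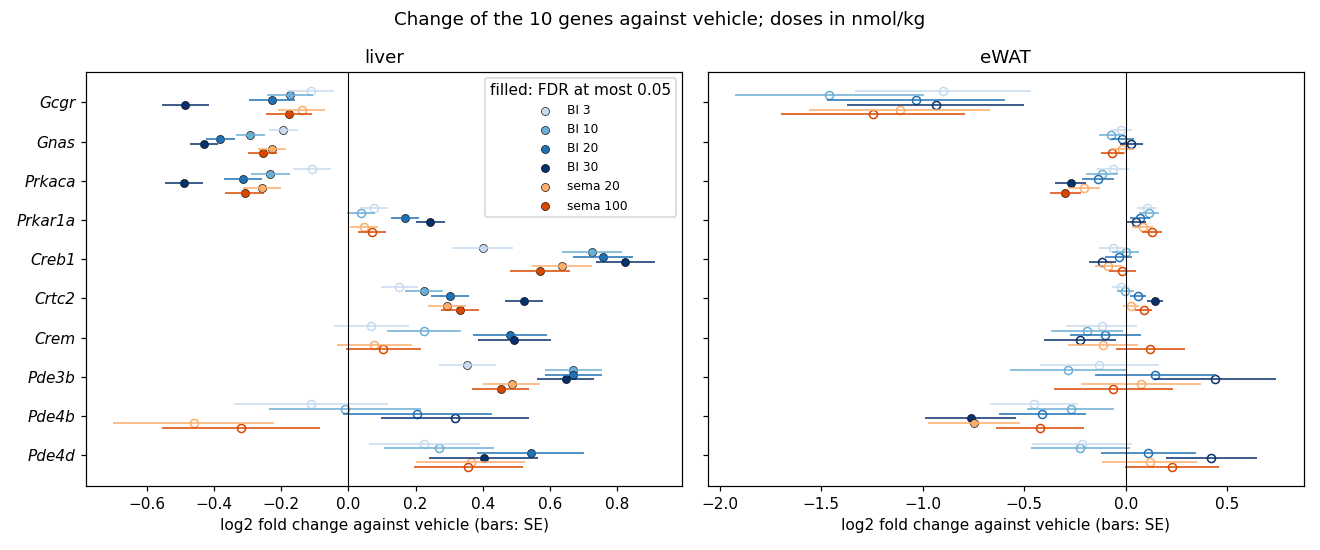
Log2 fold change against vehicle of the 10 genes in liver (left) and eWAT (right) for each dose, with bars of 1 SE. Filled points have an FDR of at most 0.05. In liver 3 filled points lie left of 0 and 6 right of it at BI 456906 30 nmol/kg, and in eWAT most points are open.

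The semaglutide groups show the same genes under agonism of the GLP-1 receptor alone. At semaglutide 20 nmol/kg 5 members passed in liver, where 46.5% of all genes did. At 100 nmol/kg 6 passed, with Creb1, Crtc2 and Pde3b up and Gcgr, Gnas and Prkaca down, where 48.2% of all genes passed. No member reached a log2 change of 1 in limma/voom, as 6.75% of the genes did. In the fit of log2(TPM + 0.1) Creb1 did, at 1.06 for 100 nmol/kg and 1.14 for 20 nmol/kg.

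At the equal dose of 20 nmol/kg, 2 of the 10 members differed between the compounds in liver, where 2.42% of all genes did. Crem was higher with BI 456906 by 0.40 ± 0.11 (FDR 0.034), with 27.2 to 47.3 TPM against 22.1 to 32.8 TPM, and Gnas was lower by 0.15 ± 0.04 (FDR 0.037), with 285 to 311 TPM against 306 to 354 TPM. Over 13 other settings the Crem call passed in 10 and the Gnas call in 7. Gcgr differed by -0.09, with an approximate 95% interval from -0.22 to 0.05, and Crtc2 by 0.01, with an interval from -0.10 to 0.12. Pde4b differed by 0.66, with an interval from 0.20 to 1.12 (FDR 0.13).

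At the highest doses, which are not equal (30 against 100 nmol/kg), 7 members differed, 4 higher and 3 lower with BI 456906, where 4.15% and 5.59% of all genes did. Gcgr was lower by 0.31 ± 0.07 (FDR 0.0028), and its 160 to 184 TPM with BI 456906 overlapped the 182 to 228 TPM with semaglutide in a narrow band. Gnas and Prkaca were each lower by 0.18 (FDR 0.0050 and 0.040). Crem was higher by 0.39 ± 0.11 (FDR 0.017), Creb1 by 0.25 ± 0.08 (FDR 0.048), Crtc2 by 0.19 ± 0.06 (FDR 0.025) and Prkar1a by 0.17 ± 0.04 (FDR 0.0055). Of 13 other settings, Gcgr and Gnas passed in all, Crem and Prkar1a in 12, Crtc2 in 9, Prkaca in 8 and Creb1 in 6. Pde4b missed the threshold at 0.64 (FDR 0.068, interval from 0.19 to 1.08), as did Pde3b at 0.19 (interval from 0.03 to 0.36) and Pde4d at 0.05 (interval from -0.26 to 0.35). These comparisons share the libraries of BI 456906 or semaglutide with those against vehicle and are not independent of them.

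In eWAT far fewer members moved. At 3, 10 and 20 nmol/kg none of the 10 passed in limma/voom, with 3, 2 and 1 at an unadjusted p under 0.05, and 0.00539%, 0.513% and 4.27% of all genes passed. At 10 nmol/kg library weights gave 2 calls, and at 20 nmol/kg they and the TPM fits gave 1 each. At 30 nmol/kg 3 members passed, where 23.9% of all genes did, and none of the 3 reached a log2 change of 1, as 6.34% of genes did. Prkaca fell by 0.27 ± 0.08 (FDR 0.010) and Pde4b by 0.76 ± 0.23 (FDR 0.013), while Crtc2 rose by 0.14 ± 0.04 (FDR 0.011).

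Pde4b, which passed in no liver group, was 9.17 TPM at the lowest, 11.1 at the median and 16.3 at the highest eWAT vehicle library. At BI 456906 30 nmol/kg it was 4.37, 7.76 and 8.81 TPM, below every vehicle library, and at semaglutide 20 nmol/kg 6.04, 6.87 and 8.82 TPM, again below. The median sum of 3 B cell markers was 12.4 TPM in vehicle (3.95 to 49.9), 5.57 TPM at BI 456906 30 nmol/kg (4.50 to 8.97) and 4.44 TPM at semaglutide 20 nmol/kg (3.14 to 7.61). That of 7 macrophage markers was 4496 TPM (2422 to 5799), 3375 TPM (3156 to 5427) and 4680 TPM (3406 to 4949), and the part of these cells in the result was not tested. Crem was also apart at 30 nmol/kg on the TPM scale, with 14.7 to 19.3 against 19.8 to 25.8 TPM in vehicle, although its log2 fold change of -0.22 ± 0.18 did not pass (FDR 0.37). Such a separation at 30 nmol/kg was found in 6.31% of the genes tested, and at semaglutide 20 nmol/kg in 482 of 18536 genes.

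Semaglutide 20 nmol/kg changed 1 member in eWAT, Pde4b (-0.75 ± 0.22, FDR 0.038), where 6.33% of all genes passed, and without the vehicle library of the highest hepatocyte level it was at -0.77 (FDR 0.052). Over 16 alternatives it stayed between -0.91 and -0.66 and passed in 13. Semaglutide 100 nmol/kg changed 1 member, Prkaca (-0.30 ± 0.08, FDR 0.0078), where 14.9% of all genes passed and 4.13% passed with a log2 change of at least 1. Pde4b stood at -0.42 ± 0.22 there (FDR 0.19). Without replicate 40, whose Pde4b of 24 TPM compares with 5.75 to 8 TPM in the other 5 libraries, it was -0.74 (FDR 0.0037). With hepatocyte markers as a covariate the change of Prkaca was -0.21 at BI 456906 30 nmol/kg (FDR 0.063) and -0.24 at semaglutide 100 nmol/kg (FDR 0.078). Over all 16 alternatives it stayed between -0.30 and -0.21 and between -0.33 and -0.23, passing in 14 at each dose. Crtc2 at 30 nmol/kg was at 0.09 with that covariate (FDR 0.12), and between 0.09 and 0.20 over the alternatives, passing in 12.

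No difference between the 2 compounds passed for any member in eWAT in limma/voom. At 20 nmol/kg 0.0% of all genes passed and at the highest doses 0.0108%, and 0 of the 10 members had even an unadjusted p under 0.05 in limma/voom. DESeq2 and the quasi-likelihood test of edgeR gave 0 as well, while library weights called 4 members at the highest doses. The slope over the doses of BI 456906 passed for 4 members, where 29.5% of all genes did, with Prkaca and Pde4b falling by 0.08 and 0.18 and Crtc2 and Pde4d rising by 0.05 and 0.18 per 10 nmol/kg.

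**Figure D3:**
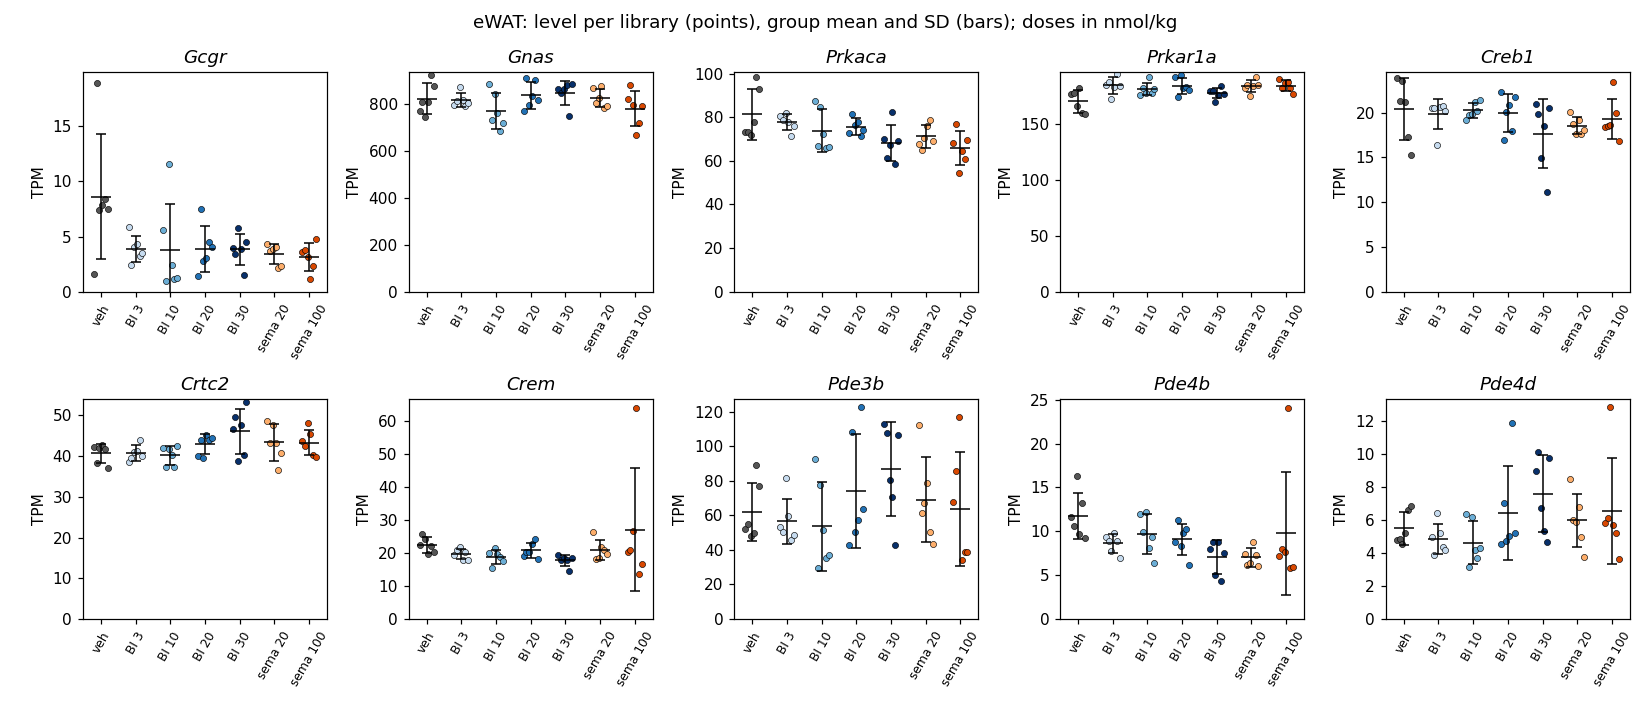
Levels of the 10 genes in eWAT, 1 panel per gene, in TPM from 0, with the 6 libraries of each group as points and the mean and SD in black. Pde4b is lower than vehicle at BI 456906 30 and semaglutide 20 nmol/kg, Pde3b spreads from 29.5 to 123 TPM over the libraries, and 1 library of semaglutide 100 nmol/kg stands far above the others for Crem and Pde4b.

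Gcgr in eWAT was low and uneven. The 6 vehicle libraries held 1.61 TPM at the lowest, 7.67 at the median and 18.96 at the highest, and those at BI 456906 30 nmol/kg 1.55, 3.94 and 5.80 TPM. Log2 fold changes were -0.94 ± 0.43 at 30 nmol/kg (FDR 0.11) and -1.25 ± 0.45 at semaglutide 100 nmol/kg (FDR 0.057), and no group passed. DESeq2 on the recovered reads called both, at -1.14 (FDR 0.042) and -1.44 (FDR 0.013).

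Hepatocyte transcripts moved with Gcgr in eWAT. Over the 42 libraries the log2 level of Gcgr and that of the summed hepatocyte markers had a Pearson r of 0.71 and a Spearman rho of 0.65, as a description of libraries that share treatment groups. In liver of vehicle mice Gcgr was 2.21 TPM for each 1000 TPM of the 8 markers. At that ratio the hepatocyte transcripts of the highest eWAT library, vehicle replicate 2 with 8034 TPM, go with 17.8 of its 18.96 TPM of Gcgr. The level of Gcgr beyond that ratio was 2.31 ± 1.90 TPM in vehicle and 3.07 ± 1.18 TPM at BI 456906 30 nmol/kg (SD, n = 6 each), with overlapping ranges of 0.365 to 5.79 and 0.964 to 4.39 TPM. The ratio of vehicle liver was used for all groups. In liver at 30 nmol/kg Gcgr was lower and the marker sum higher than in vehicle, so that the ratio was lower there. With the markers as a covariate the log2 fold change at 30 nmol/kg was -0.15 (FDR 0.78). In the library with the fewest hepatocyte transcripts, replicate 40 of semaglutide 100 nmol/kg with 18.7 TPM, Gcgr was still 1.19 TPM. In the libraries next in order, with 31.1 to 43.5 TPM of these markers, Gcgr ranged from 1.45 to 4.46 TPM. The relation of Gcgr to the adipocyte markers was not tested. In the library with most of these, vehicle replicate 5 (34902 TPM), Gcgr beyond the liver ratio was 5.79 TPM. In the library with fewest, replicate 14 of BI 456906 10 nmol/kg (10962 TPM), it was 0.773 TPM.

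**Figure D4:**
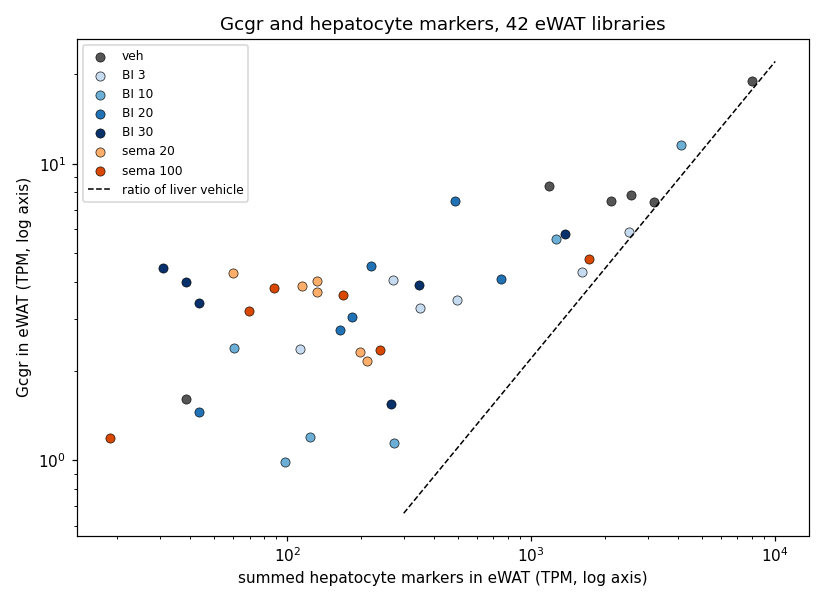
Gcgr in each of the 42 eWAT libraries against the summed level of 8 hepatocyte markers, both in TPM on log axes and coloured by group. The dashed line is the ratio of the 2 in liver of vehicle mice, 2.21 TPM per 1000. Libraries with many hepatocyte transcripts, among them 5 of vehicle, lie near the line or above it, and those with few lie far above it.

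Pde3b and Pde4d in eWAT were set against the summed level of the adipocyte markers, over libraries that share treatment groups. Pde3b, the phosphodiesterase through which insulin restrains lipolysis, ranged from 29.5 to 123 TPM, and Pde4d from 3.15 to 12.8 TPM. The Pearson r of their log2 levels with the adipocyte markers was 0.89 and 0.68 over 42 libraries, and that of Pde3b with the macrophage markers was -0.87. At BI 456906 30 nmol/kg Pde3b was 42.6, 93.7 and 113 TPM at the lowest, median and highest library against 47.9, 53.7 and 89.0 TPM in vehicle, with a log2 fold change of 0.44 ± 0.30 (FDR 0.30). Gnas, Prkar1a and Creb1 did not pass at any dose in eWAT, with log2 fold changes between -0.12 and 0.13.

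Whether the change differed between tissues was tested as an interaction over 84 libraries and 15342 genes, on recovered reads. For BI 456906 30 nmol/kg 6 of 10 members differed, where 46.2% of all genes did. The change in liver minus that in eWAT was -0.57 ± 0.07 for Gnas (FDR 4.9e-10), -0.33 ± 0.10 for Prkaca (FDR 0.0062), 0.83 ± 0.11 for Creb1 (FDR 1.7e-09), 0.27 ± 0.07 for Crtc2 (FDR 5.2e-04), 0.61 ± 0.20 for Crem (FDR 0.010) and 0.98 ± 0.32 for Pde4b (FDR 0.0095). For semaglutide 100 nmol/kg 3 members differed, where 33.7% of all genes did, and they were Gnas (-0.24), Creb1 (0.54) and Crtc2 (0.19). Gcgr did not pass in either, with 0.32 ± 0.38 and 0.97 ± 0.40 (FDR 0.52 and 0.053). The fit gave each gene a spread shared by both tissues and treated all libraries as independent. For Gcgr these SEs are smaller than those of eWAT alone, 0.43 and 0.45, so they understate the uncertainty of the difference.

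Around the 10 members, 89 other genes of the pathway were listed by role, and 83 of them were tested in liver. At BI 456906 30 nmol/kg 32 rose and 19 fell, where 28.9% of all genes rose and 29.9% fell, which is also the background of each list at this dose, with a median log2 fold change of 0.07 beside -0.03 for all genes. The 11 genes for receptor kinases, arrestins, receptor activity modifying proteins and RGS2, which bear on desensitisation, were all tested in liver. Of these, 1 rose and 3 fell, the falls being near the 29.9% of all genes. Grk4 rose by 0.65 ± 0.13 (FDR 5.4e-05), and Rgs2, Ramp2 and Grk6 fell by 0.63, 0.28 and 0.15. Grk2 stood at 0.01 (FDR 0.94), Arrb1 at 0.10 (FDR 0.37) and Arrb2 at -0.09 (FDR 0.38), and the median of the list was -0.09.

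Genes of the CREB family, its coactivators and the salt-inducible kinases, which hold CRTC proteins in the cytoplasm, rose in 7 of 10 cases and fell in 1, with a median of 0.45. Sik1, a kinase that CREB itself induces, went from 6.43 TPM in vehicle to 21.6 TPM at BI 456906 30 nmol/kg (1.72 ± 0.27, FDR 8.8e-07), and its value with semaglutide 100 nmol/kg was 0.32 (FDR 0.34). Sik2 rose by 1.04 and Ep300, a histone acetyltransferase that CREB recruits, by 1.19, and Crtc3 fell by 0.33. Of 10 CREB target genes, 6 rose and none fell, all 6 by at least 1 on the log2 scale, with a median of 1.70. A passing change of at least 1 in size, in either direction, was found in 12.9% of all genes. Because the list was chosen with earlier results of these data known, this count is a description. Tat, a tyrosine-degrading enzyme that glucagon induces, went from 371 to 2810 TPM (2.84 ± 0.26). Ppargc1a, a coactivator of gluconeogenesis, went from 1.53 to 6.98 TPM (1.92 ± 0.14), and the clock gene Per1 from 9.16 to 34.5 TPM (1.89 ± 0.19). Pck1, which encodes the gluconeogenic enzyme phosphoenolpyruvate carboxykinase, rose by 1.52 ± 0.17. For this enzyme and others of gluconeogenesis the paper noted no significant change in mRNA, and the reason for the difference was not tested. The immediate early genes Nr4a1 (2.77 ± 0.73) and Fos (2.49 ± 0.80) rose with a wide spread, Fos ranging from 5.66 to 48.1 TPM over 6 libraries. G6pc, a gluconeogenic enzyme gene of the same list, was at 0.26 (FDR 0.19).

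With semaglutide 100 nmol/kg 4 of these 10 targets rose and 1 fell, where 48.2% of all genes passed. Each of those that passed also reached a log2 change of 1 in size, as 6.75% of all genes did. The median of the 10 was 0.04. Tat was at 1.71, Ppargc1a at 1.19, Per1 at 1.12 and Pck1 at 1.11, and Nr4a3, at under 1 TPM in every liver library, fell by 1.17 (FDR 0.024). Nr4a1 and Fos stood at -0.05 and -0.08 (FDR 0.97 and 0.96).

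**Figure D5:**
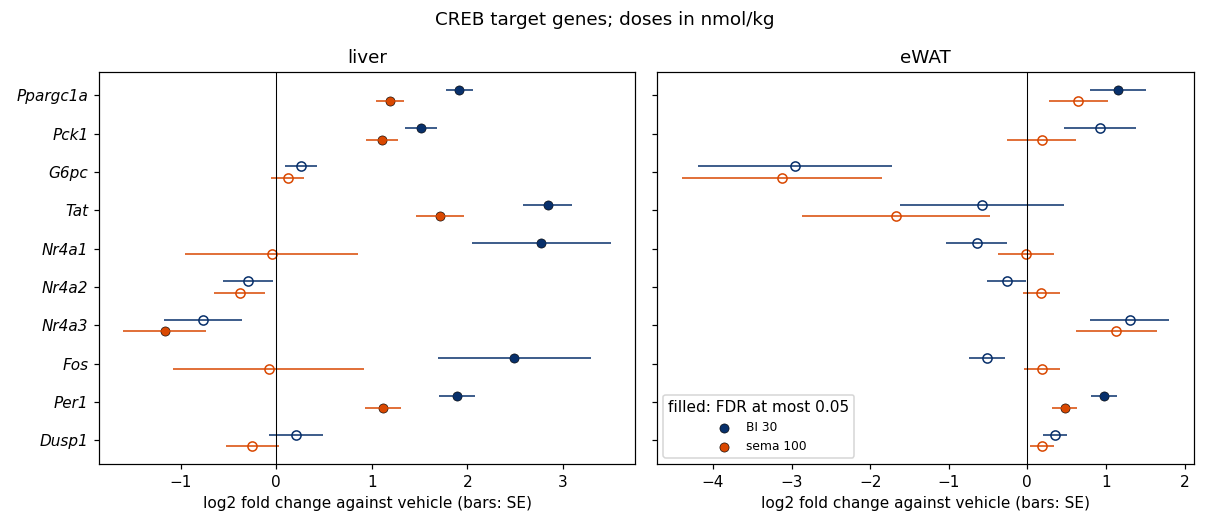
Log2 fold change against vehicle, with bars of 1 SE, of 10 CREB target genes in liver (left) and eWAT (right) at BI 456906 30 nmol/kg and semaglutide 100 nmol/kg. Filled points have an FDR of at most 0.05. In liver 6 filled points of BI 456906 lie to the right of 0, and in eWAT Ppargc1a and Per1 are filled for it.

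Of the other phosphodiesterases in liver 5 of 12 tested rose and 1 fell at BI 456906 30 nmol/kg. Pde4a, a further PDE4 gene, fell from 3.23 to 1.76 TPM (-1.02 ± 0.17, FDR 2.7e-06). Of the adenylyl cyclases 4 of 9 tested rose and 2 fell. Adcy9 went from 4.56 to 6.69 TPM (0.59 ± 0.18, FDR 0.0053) and to 8.92 TPM with semaglutide 100 nmol/kg (1.01 ± 0.18), while Adcy1 (2.5) and Adcy8 (1.3) also rose but stayed under 1 TPM. Rapgef4, the cyclic AMP sensor Epac2, went from 38.2 TPM in vehicle to 88.6 TPM at BI 456906 30 nmol/kg (1.15 ± 0.18) and 97.5 TPM at semaglutide 100 nmol/kg (1.28 ± 0.18). Akap11, a PKA anchoring protein, rose by 1.43 ± 0.13 in a list of PKA subunits, inhibitors and anchors where 3 of 12 rose and 5 fell. Gnal, a Gs-like subunit at 0.208 TPM in vehicle, rose by 1.21. Of the 13 other receptors listed 9 were tested in liver, and 3 rose and 3 fell.

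In eWAT 88 of the 89 were tested, and 12 rose and 13 fell at BI 456906 30 nmol/kg, where 23.9% of all genes passed in either direction, with a median of -0.03 beside -0.03 for all genes. The receptors Adora1 and Ptger3, both Gi-coupled brakes on lipolysis, fell from 29.9 TPM each in vehicle to 12.5 and 11.1 TPM (-1.22 ± 0.26 and -1.45 ± 0.25). They were at 10.8 and 10.2 TPM with semaglutide 100 nmol/kg (-1.50 and -1.66). Sctr, the secretin receptor, rose from 4.64 to 11.0 TPM (1.27 ± 0.33). Grk3, a receptor kinase, fell from 13.9 to 5.88 TPM (-1.12 ± 0.25), in a desensitisation list where 1 of 11 rose and 3 fell. Ppargc1a rose by 1.15, Pde11a by 1.10 and Adcy1 by 1.32, the last under 1 TPM. With semaglutide 100 nmol/kg Pde7a fell from 41.7 to 16.5 TPM (-1.3 ± 0.21), Gipr, the receptor of the incretin GIP, fell by 1.08, Adcy10 fell by 1.42 at under 1 TPM and Gnal rose by 1.12.

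The genes whose pattern over the 42 liver libraries was most like that of Gcgr, among 11819 genes of at least 1 TPM on average, were Pdzk1 (Pearson r 0.95), Sec14l2 (0.95), Anp32a (0.94), Psen2 (0.93) and Ppdpf (0.93). Within groups, after each group's mean was removed, these values were 0.89, 0.88, 0.87, 0.85 and 0.82. Among the closest to Pde4b were Tob1 (0.63), Mmd2 (0.60), Cyp2b9 (0.59) and Hamp2 (0.59), with 0.34 to 0.55 within groups. The libraries share their groups and their differences in GC content, and these values are given as a description.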

How the data were processed

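RNA from 42 liver and 42 eWAT samples was analysed in the authors' tables. Per the labels' processing notes, STAR 2.5.2b, RSEM 1.3.0 and featureCounts 1.5.1 were among the tools, with mm10. The labels describe SMART-Seq single reads, and the paper describes directional poly(A) libraries read in pairs. The deposited gene values are a signal, that is reads divided by 1 factor per library: whole reads (tolerance 0.1) were recovered for 100% of values. The deposited TPM values were used as the authors gave them, for levels. Symbols were paired with 48434 of 48794 identifiers. The members and lists were chosen with earlier results of these data known.

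Deposited values were tested with limma/voom, using limma 3.58.1 and edgeR 4.0.16 in R 4.3.3, with TMM factors, a pseudocount of 0.5 and filterByExpr. The interaction used recovered reads. Genes were named as all members, listed pathway genes past an FDR of 0.05 and a log2 change of 1 at the highest doses (other listed genes were named after their values were seen), and the 5 genes most like Gcgr and Pde4b. A few genes that this rule names are not reported here. Replicate numbers are library numbers. Alternatives included DESeq2 1.42.0 and edgeR on recovered reads. On simulated data for liver BI 456906 30 nmol/kg with 15863 genes, limma/voom recovered 52 of 100 genes changed by 0.5 and 82 of 100 changed by 1 (log2), with 10 false calls. No other gene was changed there. In the data 28.9% of genes passed with a rise and 29.9% with a fall, so these rates do not carry over to that contrast. Counting error is part of the spread between libraries. Proteins are not analysed here.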

Additional observations from a re-analysis of the deposited data

Results flagged for a closer look

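Of 140 sets of 6 TPM values (10 genes, 14 groups), 13 held a library far from the others, where chance gives about 1 in 20, and 9 of these were in eWAT. In liver they were Gcgr at 183.9 TPM in replicate 70 of BI 456906 30 nmol/kg (others 160.1 to 166.3), Prkar1a at 65.51 TPM in replicate 63 of 20 nmol/kg (others 74.09 to 75.33), Crtc2 at 31.42 TPM in replicate 76 of semaglutide 20 nmol/kg (others 26.43 to 28.18) and Pde4b at 6.51 TPM in replicate 49 of BI 456906 3 nmol/kg (others 2.90 to 4.03). Without replicate 70 the log2 fold change of Gcgr at 30 nmol/kg was -0.50.

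In eWAT, replicate 40 of semaglutide 100 nmol/kg stood apart for both Crem (63.86 TPM, others 13.64 to 26.80) and Pde4b (24 TPM, others 5.75 to 8). Replicate 9 of BI 456906 3 nmol/kg stood apart for Gnas (873.6 TPM, others 793.6 to 816.4) and Creb1 (16.42 TPM, others 20.20 to 20.77). Replicate 29 of BI 456906 30 nmol/kg stood apart for Gnas (748.1 TPM, others 845.7 to 884.7) and Crem (14.65 TPM, others 17.72 to 19.27). The others were Prkar1a at 192.0 TPM in replicate 16 of 10 nmol/kg, and Pde4d at 11.88 TPM in replicate 23 of 20 nmol/kg and 12.82 TPM in replicate 39 of semaglutide 100 nmol/kg.

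The change in liver minus that in eWAT passed the interaction test at BI 456906 30 nmol/kg for Prkaca (-0.3257), Creb1 (0.8335), Gnas (-0.5671), Crtc2 (0.2716), Pde4b (0.9759) and Crem (0.6108). At semaglutide 100 nmol/kg it passed for Creb1 (0.537), Gnas (-0.2406) and Crtc2 (0.1916).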

How the results depend on the processing

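The number of members that passed stayed within 1.5 times the main number in liver for BI 456906 10, 20 and 30 nmol/kg, both semaglutide doses and the slope, and in both interactions, under every alternative run. In liver at BI 456906 3 nmol/kg it was 3, but 5 in the fits of log2(TPM + 1) and log2(TPM + 0.1) and 0 with only the groups compared. Between the compounds at 20 nmol/kg it was 2, but 1 with library size alone, with no filter, without the library of fewest reads, with only the groups compared and with GC correction, and 0 in both TPM fits. At the highest doses it was 7, but 4 with no filter and in both TPM fits.

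In eWAT library weights gave 2 at 10 nmol/kg, 1 at 20, 6 at 30 and 4 between the highest doses, in place of 0, 0, 3 and 0, and both TPM fits gave 1 at 20 nmol/kg. At semaglutide 20 nmol/kg the 1 became 0 with library size alone, with no filter and without vehicle replicate 2 (1 without replicate 40), and 2 with DESeq2, both TPM fits, library weights, GC correction and adipocyte markers as a covariate. At semaglutide 100 nmol/kg the 1 became 2 with library size alone, edgeR, both TPM fits, GC correction and without replicate 40 (1 without vehicle replicate 2), 3 with DESeq2 and library weights, and 0 with only the groups compared and hepatocyte markers as a covariate. The slope without vehicle gave 2 in place of 4. The causes were not tested. Of the values of single members, 93 of liver and 53 of eWAT changed their side of the threshold over the alternatives, and none that passed changed sign. No paired analysis was possible because the groups share no replicate numbers.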
